A study of Mus musculus with 4 samples.

Results

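Sertoli cells are the somatic cells that line the seminiferous tubules, enclose the germ cells and feed them with secreted proteins. Tight and adherens junctions between neighbouring Sertoli cells form the blood-testis barrier, and actin-rich ectoplasmic specializations hold both these junctions and the heads of elongating spermatids. A list of 10 genes tied to these cells was followed here, chosen with earlier results of these data known. Espn, Cldn11 and Tjp1 stand for junctions and their actin, and Clu, Trf, Cst9 and Cst12 for secreted proteins. Mro, Aard and Rhox5 are other genes that Sertoli cells express. Of the 10 genes, 8 had an entry in the table of 26068 named entries, and 0 of the 8 symbols had a repeated entry. Trf and Rhox5 were not analysed here.

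The samples were whole testes of 24-day-old males of the B6D2F1 hybrid strain, an age when spermatids are forming in the first wave of spermatogenesis. There were 2 libraries from homozygous Adad2-knockout testes and 2 from wild type testes, with no treatment named. ADAD2 is made in male germ cells and carries domains for RNA binding and of the deaminase type, and the series' title asks about its part in piRNA production and in spermatid maturation. How the knockout allele was made, which part of the gene it removes and whether the replicates are separate animals is not stated in the labels, so the p-values measure only how far these samples spread, and that spread may be technical.

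Levels are RPKM values, which are reads per gene length and library depth, on the log2 scale, and a change is the knockout mean minus the wild type mean on that scale. Depth was estimated at 33200000 and 29600000 reads in knockout replicates 1 and 2, and at 30600000 and 37300000 reads in wild type replicates 1 and 2. The 8 genes carried an estimated 603 to 32742 reads per library. Adad2 stood at 3.73 and 3.30 log2 RPKM in the knockout libraries, against 4.66 and 4.47 in the wild type libraries. Its change of -1.05 passed the threshold (limma adjusted p = 0.00604), and some Adad2 transcript remained in each knockout library. The call of Adad2 was lost without wild type replicate 1 (limma adjusted p = 0.143) or wild type replicate 2 (0.0838). Over 13414 genes tested, 163 were higher and 959 lower at a limma adjusted p under 0.05. These counts were 0 and 0 without wild type replicate 1, where the unadjusted p was under 0.05 in 2357 genes, and 22 and 288 without wild type replicate 2. They were 405 and 1308 without knockout replicate 1, and 494 and 1056 without knockout replicate 2.

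The Sertoli cell label was checked on 17 identity genes, of which 14 averaged at least 1 RPKM. Sox9, the transcription factor that sets Sertoli cell fate, stood at 2.48 and 2.65 log2 RPKM in the knockout libraries and at 2.30 and 2.34 in the wild type libraries. The summed level of the 17 genes was 193 and 202 RPKM in the knockout libraries, against 164 and 159 RPKM in the wild type libraries. Krt18, Nr5a2 and Hsd17b1 were below 1 RPKM on average. Of 8 epididymal genes, 0 averaged 1 RPKM, and their summed level was 0.397 and 0.317 RPKM in the knockout, against 0.863 and 0.416 RPKM in wild type.

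The cystatin genes Cst9 and Cst12 lie close together on chromosome 2 and behaved differently between libraries. The 250 bases before the annotated start of each are shown, 5′ to 3′ on the plus strand, from RefSeq on GRCm38.p6. Being reference sequence, they are the same for every library and do not bear on differences between libraries. The Cst9 stretch is chr2:148834897-148835146 and the Cst12 stretch is chr2:148789115-148789364. Capitals mark their longest identical run, of 8 bases.
Cst9: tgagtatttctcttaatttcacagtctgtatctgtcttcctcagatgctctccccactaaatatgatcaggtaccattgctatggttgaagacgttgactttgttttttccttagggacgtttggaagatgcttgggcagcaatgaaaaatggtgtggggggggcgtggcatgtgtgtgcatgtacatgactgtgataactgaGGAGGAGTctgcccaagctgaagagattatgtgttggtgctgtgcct
Cst12: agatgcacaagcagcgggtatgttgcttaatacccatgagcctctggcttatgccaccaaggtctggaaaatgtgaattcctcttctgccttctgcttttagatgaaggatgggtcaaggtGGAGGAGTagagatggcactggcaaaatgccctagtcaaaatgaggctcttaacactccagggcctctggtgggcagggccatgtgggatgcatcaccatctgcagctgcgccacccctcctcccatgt
Aligned end to end, the stretches were identical at 48.6% of columns, and the longest annotated transcripts of the genes at 52.9%, with no identical run longer than 9 bases between the transcripts. No unrelated sequences were aligned for comparison, so these values do not show whether the stretches are alike. No stretch of 50 identical bases was found between the transcripts of 7 of the 8 genes and those of any other gene in Gencode M21. Mro was the exception, since it shares such a stretch with Gm33936. No other entry of the table overlapped any of the 8 genes. Neither stretch holds, on either strand, the TATA box letters TATAAA, the GATA factor motif AGATAA, the androgen receptor motif core AGAACA or the SOX motif ACAATG, nor do the 5 stretches of the same length found for Cldn11, Espn and Tjp1. Of 32851 promoters in the table, 12.4% hold the letters TATAAA, 9.99% AGATAA, 16.1% AGAACA and 10.7% ACAATG.

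Of the 8 genes, 7 had a higher mean in the knockout and Cst9 a lower one, beside 71.8% of all genes tested with a higher mean. Their median change was 0.32 beside 0.14 over all genes tested, and it was 0.03 beside -0.15 with the median of the Sertoli identity genes set equal between libraries. Espn and Mro passed the threshold as higher, which is 2 of 8 genes beside 1.22% of all genes tested, and 0 passed it as lower beside 7.15%. At an unadjusted limma p under 0.05 the counts were 5 higher and 0 lower, beside 15.6% and 11.3% of all genes tested. Both knockout libraries lay above both wild type libraries in 6 of the 8 genes, beside 46.4% of all genes tested. The list was chosen with earlier results of these data known, so these shares are not a test of it. In bulk tissue, fewer cells of a type and less RNA per cell cannot be told apart, and RPKM values are shares of each library. In the same libraries, 8 elongating spermatid markers summed to 78.3 and 43.7 RPKM in the knockout, against 839 and 806 RPKM in wild type. The difference was smaller for 8 round spermatid markers, at 107.8 and 86.9 RPKM in the knockout, against 281.1 and 253.5 RPKM in wild type. The part of these differences in the higher Sertoli cell values was not tested.

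**Figure D1:**
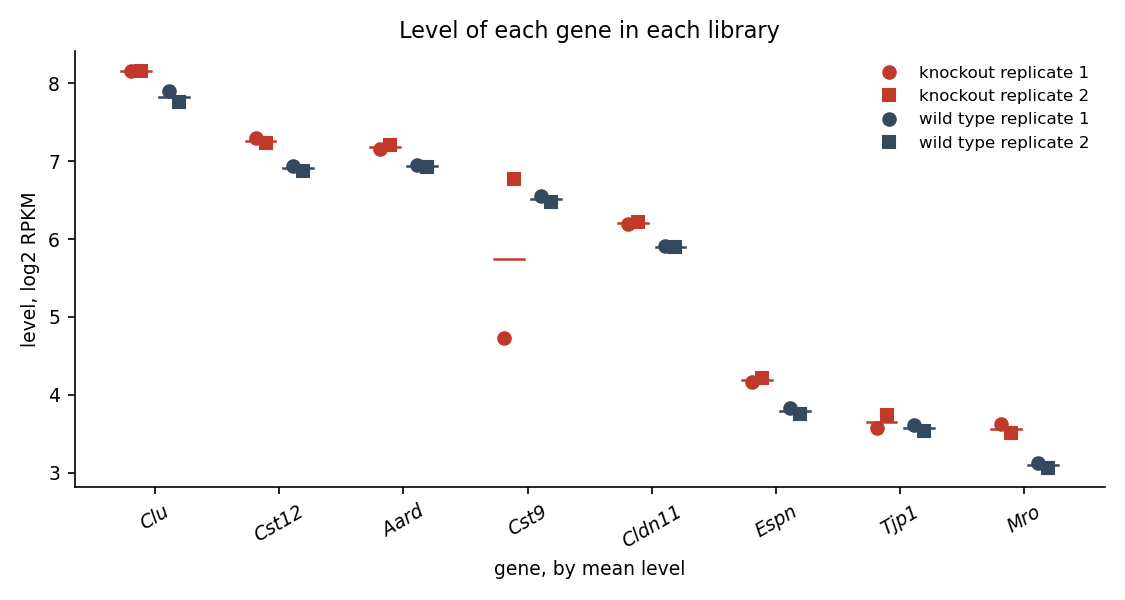
Level of each of the 8 genes in log2 RPKM, with a point for each library and a bar at each group's mean (n = 2 libraries per group), knockout in red to the left of wild type in dark blue. In Clu, Cst12, Aard, Cldn11, Espn and Mro both knockout points lie above both wild type points, in Tjp1 they overlap, and in Cst9 knockout replicate 1 lies at 4.73 while the other libraries lie between 6.48 and 6.77.

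Espn encodes espin, a protein that bundles actin filaments and is a component of the ectoplasmic specialization. It stood at 4.17 and 4.22 log2 RPKM in the knockout libraries, against 3.83 and 3.75 in the wild type libraries. The knockout libraries were both above the wild type libraries. Espn rose 1.32-fold (log2 change 0.40, SE 0.10, 95% confidence interval 0.17 to 0.64, limma adjusted p = 0.0462), with means of 4.19 ± 0.04 in the knockout and 3.79 ± 0.05 in wild type (SD, n = 2 each). Its mm9 position is chromosome 4, 151494440 to 151526480, minus strand (ENSMUSG00000028943). The direction held on leaving out each library in turn, but the call did not: the limma adjusted p was then 0.0558 to 0.185. It was 0.101 without a filter on low values and 0.0995 without trend and robust estimation.

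Cldn11 encodes claudin 11, which forms the tight junction strands of Sertoli cells. Its level was 6.20 and 6.23 log2 RPKM in the knockout libraries, against 5.92 and 5.89 in the wild type libraries. Replicates lay within 0.03 of each other in both groups, and the groups did not overlap. The change of 0.31 (SE 0.10, interval 0.07 to 0.54) missed the threshold over all genes (limma adjusted p = 0.115).

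Tjp1 encodes ZO-1, the scaffold that ties claudins to the actin cytoskeleton. It stood at 3.58 and 3.73 log2 RPKM in the knockout libraries, against 3.61 and 3.54 in the wild type libraries. The groups overlapped, since knockout replicate 1 lay between the wild type libraries. The change was 0.08 with an interval of -0.16 to 0.33 (limma adjusted p = 0.597).

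Clu encodes clusterin, a secreted chaperone-like glycoprotein, and had the highest level of the 8 genes. It stood at 8.16 and 8.16 log2 RPKM in the knockout libraries, against 7.90 and 7.76 in the wild type libraries, or 287 and 286 RPKM against 239 and 216 RPKM. Both knockout libraries were above both wild type libraries. The change of 0.33 (SE 0.12, interval 0.07 to 0.60) missed the threshold (limma adjusted p = 0.126).

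Cst12 encodes a cystatin, a member of a family of secreted inhibitors of cysteine proteases. It stood at 7.30 and 7.23 log2 RPKM in the knockout libraries, against 6.94 and 6.88 in the wild type libraries. The groups did not overlap. The change was 0.36 (SE 0.11, interval 0.11 to 0.61, limma adjusted p = 0.0919), so Cst12 was not called.

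Cst9 encodes a related protein, also called testatin, and its pattern stood apart. Its level was 4.73 and 6.77 log2 RPKM in knockout replicates 1 and 2, against 6.55 and 6.48 in wild type replicates 1 and 2. These are 26.5 and 109.5 RPKM in the knockout and 93.6 and 89.0 RPKM in wild type. An estimated 603 reads in knockout replicate 1 and 2226 in knockout replicate 2 stood behind them, against 1968 and 2281 in the wild type libraries. The exact Poisson 95% interval of the count in knockout replicate 1, which covers counting error only, runs from 556 to 653 reads and lies below the counts of the other libraries. Knockout replicate 1 was low and knockout replicate 2 was the highest of the 4 libraries. The change over both replicates was -0.76 with an SE of 0.84 and an interval of -3.45 to 1.93 (limma adjusted p = 0.582). Without knockout replicate 1 the change was 0.26 (adjusted p = 0.442). Without knockout replicate 2 it was -1.79 (adjusted p = 1.71e-18), a p that takes the lone knockout library to vary as the wild type libraries do. The mean change of Cst9 is thus set by which knockout library is read.

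**Figure D2:**
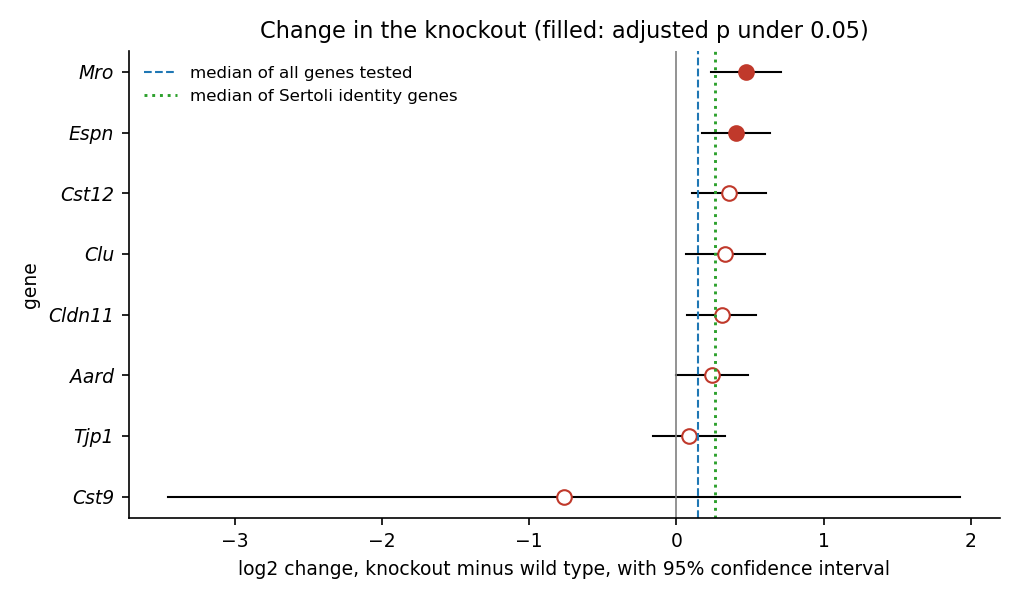
Change of each gene (knockout minus wild type, log2 scale, n = 2 libraries per group) with its 95% confidence interval from limma; filled points passed the adjusted threshold. Mro at 0.47 and Espn at 0.40 are filled, and the interval of Cst9 runs from -3.45 to 1.93; the dashed line marks the median of all genes tested, 0.14, and the dotted line that of the Sertoli identity genes, 0.26.

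Knockout replicate 1 did not stand low as a library, with a median over the genes tested of 2.64 log2 RPKM beside 2.60 in knockout replicate 2. Of the 13414 genes tested, Cst9 was the 1 gene in which knockout replicate 1 was below knockout replicate 2 by as much as 2.05, while 9 genes were above it by that much. A gap of 1 or more was found in 19 genes with knockout replicate 1 lower and in 136 genes with it higher. The 136 include the spermatid genes Prm1, Prm2, Tnp1, Tnp2 and Spem1, so these counts are not a measure of library level alone. In the wild type pair, 6 genes were apart by 2.05 or more in either direction. Relative to Cst12 in the same library, which needs no scaling between libraries, Cst9 was at -2.57 and -0.46 in knockout replicates 1 and 2 and at -0.39 and -0.40 in wild type replicates 1 and 2, as log2 differences. The ratio in knockout replicate 2 was thus close to that of wild type, and the ratio in knockout replicate 1 was not.

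**Figure D3:**
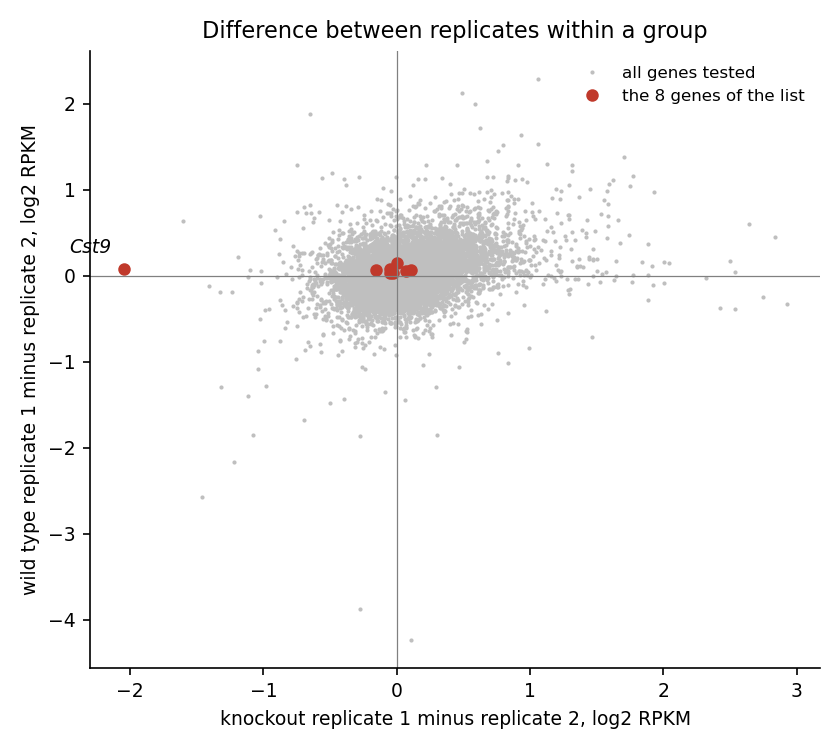
Difference between replicates 1 and 2 in the knockout (horizontal, log2 RPKM) and in wild type (vertical), with a grey point for each of 13414 genes tested and a red point for each of the 8 genes. Cst9 is the leftmost point at -2.05 in the knockout and 0.07 in wild type, and the other 7 genes lie near 0 on both axes.

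The cystatin cluster around both genes held other patterns, and its genes are given here because of the values of Cst9, after those were seen. Cst8, a cystatin of germ cells and epididymis, stood at 0.19 and 1.21 log2 RPKM in the knockout libraries, against 4.11 and 4.06 in the wild type libraries. It fell with a log2 change of -3.39 (SE 0.36, limma adjusted p = 0.0096). Cst8 was lower in knockout replicate 1 than in replicate 2, on an estimated 32 and 58 reads, against 451 and 529 in the wild type libraries. Unlike Cst9, it was below wild type in both knockout libraries. Its call was lost without wild type replicate 1 (adjusted p = 0.0718) or 2 (0.0513). Cst13 stood at -3.69 and -4.68 log2 RPKM in the knockout libraries, against 2.97 and 3.13 in the wild type libraries. It had about 2 reads in knockout replicate 1 and none above the floor in knockout replicate 2, and its mean over the 4 libraries was under the filter, so it was not tested. Cstl1 stood at -3.00 and -4.57 in the knockout, against 1.52 and 1.36 in wild type, and was not tested either. Cst3, which encodes the widely expressed cystatin C, stood at 6.33 and 6.35 in the knockout libraries, against 6.01 and 6.09 in the wild type libraries (change 0.29, limma adjusted p = 0.135). 8030411F24Rik, which lies next to Cst12, stood at 4.05 and 3.92 in the knockout libraries, against 3.51 and 3.59 in the wild type libraries, and was the 1 gene of the cluster called higher (change 0.44, SE 0.10, limma adjusted p = 0.0390). Its call was lost without knockout replicate 1 (limma adjusted p = 0.107), wild type replicate 1 (0.227) or wild type replicate 2 (0.153), without a filter (0.0971), without trend and robust estimation (0.0918) and with the Sertoli identity median set equal (0.593). 9230104L09Rik, between Cst9 and Cst3, stood at -0.50 and -0.09 in the knockout, against -0.86 and -0.60 in wild type, and was not tested, nor was Cst11, whose values were at or under -2.22 in every library and overlapped between the groups. In the cluster, then, Cst12, Cst3, 8030411F24Rik and 9230104L09Rik were above wild type in both knockout libraries, Cst8, Cst13 and Cstl1 were below it in both, and Cst9 was below it in knockout replicate 1 and above it in knockout replicate 2.

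In 4 tested genes knockout replicate 1 was at least 1 below each other library, and 3 of them were on chromosome 2, which held 7.89% of the genes tested. The 4 genes were searched for after the values of Cst9 were seen and include Cst9, so this share is not a test. The 3 were Cst8 at 148624521 to 148631331, Cst9 at 148660883 to 148664474 and 1700030C14Rik at 152478619 to 152480066, all in mm9. 1700030C14Rik stood at 0.49 and 1.59 log2 RPKM in the knockout, against 2.78 and 2.71 in wild type. The fourth, Gm15904 on chromosome 4, stood at -1.20 and 0.41 in the knockout, against 1.93 and 1.29 in wild type. Cst9 was the 1 gene of the 4 in which the other libraries lay within 0.5 of each other. In Cst8, 1700030C14Rik and Gm15904 both knockout libraries lay below both wild type libraries, which is not the pattern of Cst9. The 36 other tested genes between Cst8 and 1700030C14Rik had a median of 0.06 for knockout replicate 1 minus replicate 2, from -0.73 in Srxn1 to 1.29. Cst13 and 9230104L09Rik, on either side of Cst9, were under the filter and are not among these genes. A cause shared along the stretch was not tested.

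**Figure D4:**
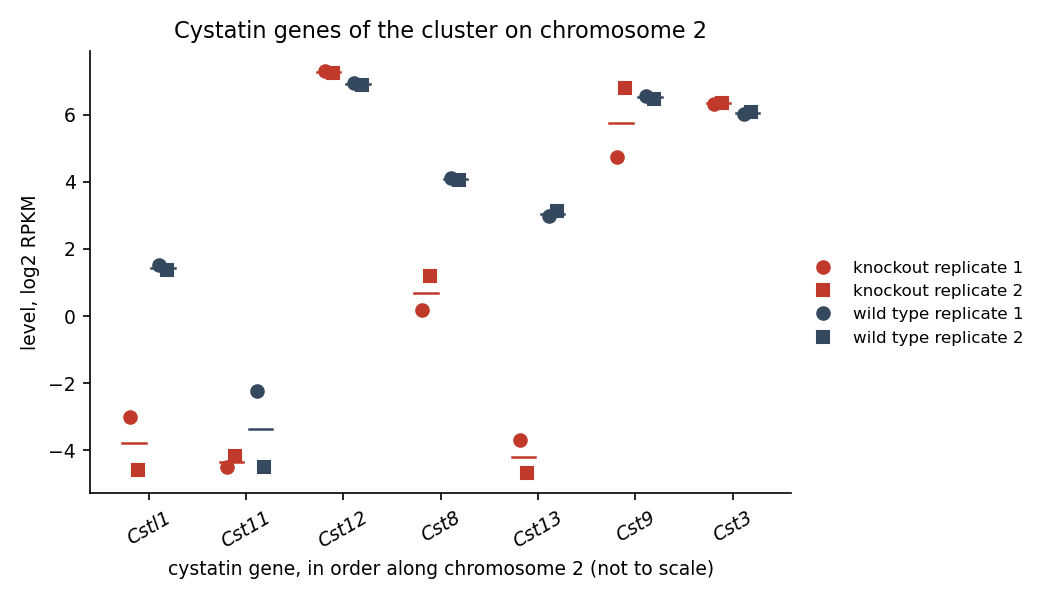
Level in log2 RPKM of 7 cystatin genes in their order along chromosome 2, with a point for each library and a bar at each group's mean, knockout in red to the left of wild type in dark blue. Cst12 and Cst3 have knockout points above wild type, Cstl1, Cst8 and Cst13 have both knockout points below wild type, and the knockout points of Cst9 are split at 4.73 and 6.77; values of Cst11 lie below -2.2 throughout.

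Mro encodes maestro, a protein first described in the developing male gonad. It stood at 3.62 and 3.51 log2 RPKM in the knockout libraries, against 3.13 and 3.06 in the wild type libraries. The groups did not overlap. Mro rose 1.39-fold (log2 change 0.47, SE 0.10, 95% confidence interval 0.23 to 0.71, limma adjusted p = 0.0271), the largest rise of the 8 genes. Its group means were 3.57 ± 0.08 in the knockout and 3.10 ± 0.04 in wild type (SD, n = 2 each). Its mm9 position is chromosome 18, 74019039 to 74040987, plus strand (ENSMUSG00000064036). The call was lost without knockout replicate 1 (adjusted p = 0.0551), without wild type replicate 1 (0.169) and without wild type replicate 2 (0.168). It was also lost without a filter (0.0766) and without trend and robust estimation (0.0703).

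Aard, a gene for an alanine- and arginine-rich protein, stood at 7.16 and 7.21 log2 RPKM in the knockout libraries, against 6.96 and 6.92 in the wild type libraries. The groups did not overlap. The change of 0.24 had an interval of -0.01 to 0.49 (limma adjusted p = 0.191).

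By mean level over the 4 libraries, the order was Clu, Cst12, Aard, Cst9, Cldn11, Espn, Tjp1 and Mro. Neighbours were not always separate: within wild type, Cst12 and Aard overlapped, at 6.94 and 6.88 against 6.96 and 6.92. Tjp1 was above Mro in both wild type libraries, while their values overlapped in the knockout libraries. Cst9 was above Cldn11 in knockout replicate 2 and in both wild type libraries, and below it in knockout replicate 1, so that the order of their means is reversed in the knockout (5.75 for Cst9 and 6.21 for Cldn11) against wild type (6.51 and 5.90).

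Levels were also set against the median of the 14 Sertoli identity genes past the filter in the same library, which was 3.22 and 3.23 log2 RPKM in the knockout libraries, against 2.96 and 2.90 in the wild type libraries. In each of the 14 the knockout mean was above the wild type mean, beside 71.8% of all genes tested. Their median change was 0.26 beside 0.14 over all genes tested. In limma 0 passed the threshold as higher beside 1.22%, and 7 were higher at an unadjusted p under 0.05 beside 15.6%. None passed as lower. Relative to the identity median, the differences between knockout and wild type were 0.06 for Cst12, 0.04 for Clu, 0.01 for Cldn11 and -0.05 for Aard. Those of Espn and Mro were 0.11 and 0.18, beside changes of 0.40 and 0.47 in log2 RPKM. With the identity median set equal between libraries in the fit, neither was called (limma adjusted p = 0.692 for Espn and 0.451 for Mro), and the calls over all genes were 37 higher and 1924 lower in place of 163 higher and 959 lower. Mro was at 0.40 and 0.28 above the identity median in the knockout libraries, against 0.16 and 0.17 in the wild type libraries. Tjp1 was at 0.36 and 0.51 above it in the knockout, against 0.64 and 0.64 in wild type, a difference of -0.21 that was not called (adjusted p = 0.364). Cst9 was at 1.51 and 3.55 above it in the knockout, against 3.58 and 3.58 in wild type.

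**Figure D5:**
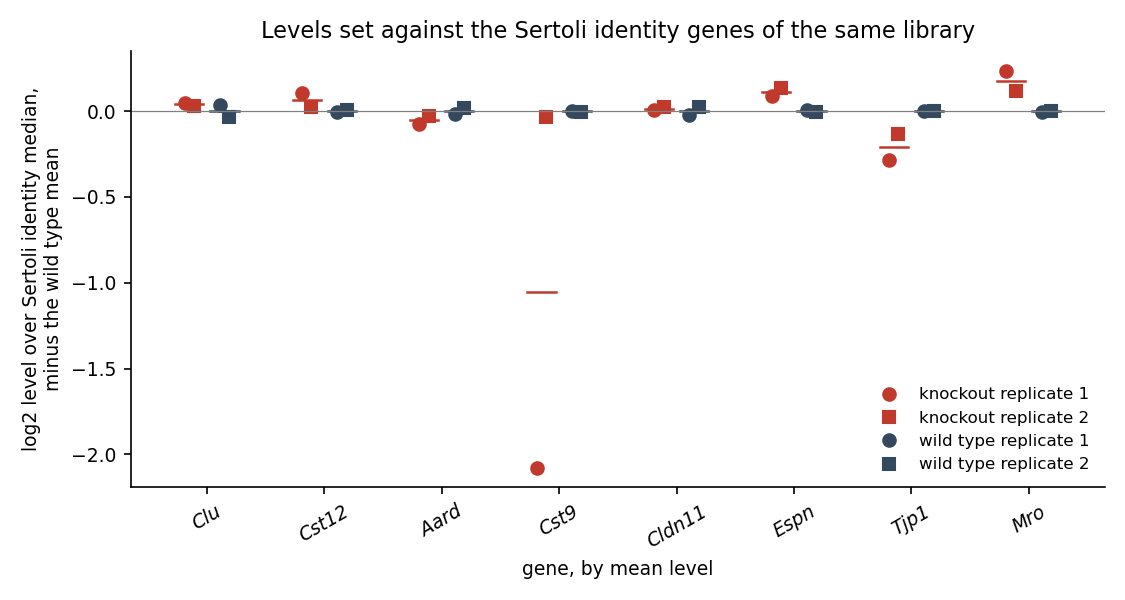
Level of each gene over the median of the Sertoli identity genes of the same library, shown as the difference from the wild type mean on the log2 scale, with a point for each library and a bar at each group's mean (n = 2), knockout in red to the left of wild type in dark blue. Apart from Cst9 in knockout replicate 1, all points lie within 0.3 of 0, with both knockout points above wild type in Mro, Espn and Cst12 and below it in Tjp1, Aard and Cst9.

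Other genes of Sertoli cell junctions were described from a list of 41, which includes Cldn11, Tjp1 and Espn and whose members are also expressed in other cells. Of 31 tested, 2 passed as higher and 1 as lower, beside 1.22% and 7.15% of all genes tested. The median change was 0.24 beside 0.14 over all genes tested. It turned to -0.06 beside -0.15 with the Sertoli identity median set equal. At an unadjusted limma p under 0.05 there were 12 higher and 4 lower beside 15.6% and 11.3% of all genes tested, and 25 had a change above 0 beside 71.8%. Besides Espn, Ocln, the tight junction protein occludin, was higher, at 1.73 and 1.78 log2 RPKM in the knockout libraries, against 1.15 and 1.07 in the wild type libraries (change 0.64, SE 0.14, limma adjusted p = 0.0262). Jup, the junction plaque protein plakoglobin, fell, at 0.03 and 0.29 in the knockout, against 0.97 and 0.97 in wild type (change -0.81, SE 0.19, adjusted p = 0.0337). In both genes the groups were well apart. Itgb1, an integrin beta chain, had a change of 0.41 (limma adjusted p = 0.0501), and Wasl, which promotes actin branching, one of 0.35 (0.0935). Ocln missed the threshold without wild type replicate 1 (limma adjusted p = 0.173) or 2 (0.166), and so did Jup (0.247 and 0.21). Without a filter both missed it (0.0661 for Ocln and 0.0892 for Jup), as did Jup after quantile normalization (0.0536) and Ocln with the identity median set equal (0.172).

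A list of 35 genes for proteins that Sertoli cells secrete, was read in the same way and includes Clu, Cst9 and Cst12. Of 27 tested, 1 passed as higher and 0 as lower, beside 1.22% and 7.15% of all genes tested. At an unadjusted limma p under 0.05 there were 10 higher and 0 lower, beside 15.6% and 11.3% of all genes tested. In 26 the change was above 0, beside 71.8% of all genes tested. The median change was 0.29 beside 0.14 over all genes tested. It turned to -0.005 beside -0.15 with the Sertoli identity median set equal. Dhh and Amh are also among the identity genes, and the median of 0.29 is the change of Dhh. The scaled value is therefore in part set by construction. The gene that passed was Defb36, of the beta-defensin family, at 5.40 and 5.33 log2 RPKM in the knockout libraries, against 4.93 and 4.98 in the wild type libraries (change 0.41, SE 0.10, adjusted p = 0.0471). Its call was lost on leaving out any 1 library (limma adjusted p = 0.0927 to 0.183), without a filter (0.0959), without trend and robust estimation (0.0964) and with the identity median set equal (0.71). Pdgfa, a growth factor, had a change of 0.53 (limma adjusted p = 0.0607), Lgals1, a galectin, 0.31 (0.114), and Plat, tissue plasminogen activator, 0.35 (0.118). Cst9 was the 1 tested gene of the list with a change below 0.

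Summed levels of other cell types in the same libraries did not all follow the Sertoli cell genes. Leydig cell markers (8 genes) summed to 362 and 518 RPKM in the knockout libraries, against 308 and 457 RPKM in the wild type libraries, so replicate 2 was higher in both groups. Peritubular markers (6 genes) summed to 64.2 and 58.4 RPKM in the knockout, against 53.5 and 48.6 RPKM in wild type. In 4 of the 6 the knockout libraries lay above wild type and in 1 below, beside 46.4% and 16.8% of all genes tested. Spermatogonial markers (8 genes) summed to 78.0 and 74.5 RPKM in the knockout, against 62.4 and 61.0 RPKM in wild type. Spermatocyte markers (8 genes) overlapped, at 1868 and 1740 RPKM in the knockout and 1665 and 1926 RPKM in wild type. Within this sum 1 gene was called lower and 6 had a change above 0, beside 7.15% and 71.8% of all genes tested. Macrophage markers (6 genes) overlapped too, at 24.4 and 23.9 RPKM in the knockout and 20.7 and 24.9 RPKM in wild type. Red blood cell genes (5 genes) summed to 38.5 and 50.2 RPKM in the knockout, against 106 and 50.5 RPKM in wild type, with wild type replicate 1 the highest.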

How the data were processed

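RNA from 24-day testes was made into TruSeq RNA libraries, per the labels' protocols. Per the submitters' processing notes, bcl2fastq 2.17.1.14, Bowtie2 and the mm9 genome were used; how reads were counted, on which annotation and whether by strand is not given in the sources used here. The authors deposited log2 RPKM values for 26127 entries; the 59 without a gene name were dropped. Columns called control and null were assigned to samples by group and number, and 0 sample columns were left unmapped. Depth was estimated from genes with a single exon, where 87.6% to 89.4% of low values above the floor came out as whole reads (tolerance 2%). Reads per gene used merged exon lengths of Gencode M21, which is on another build.

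The 13414 genes with a mean log2 RPKM of at least 0 (1 RPKM) entered an unpaired two-sided limma fit (limma 3.58.1, R 4.3.3, statmod 1.5.0; trend and robust empirical Bayes). P-values were adjusted over all of them by Benjamini-Hochberg, and a call is an adjusted p under 0.05. With 2 libraries against 2, an exact permutation test cannot go below a two-sided p of 0.333. The members and lists were chosen with earlier results of these data known. Named genes are the 8 members, Adad2, and in the junction and secreted lists each called gene and the 4 non-member genes of smallest p; the other genes of the cystatin cluster and those low in knockout replicate 1 were added after values were seen. Alternatives were other filters, log2(RPKM + 1), scalings and variance models, a replicate block, and leaving out each library. Identical stretches were searched with BLAST 2.17.0 and sequences aligned with Biopython 1.88. The code was tested on simulated data.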

Additional observations from a re-analysis of the deposited data

How the results depend on the processing

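The direction of change stayed the same for the 8 genes, apart from Cst9 without knockout replicate 1 (0.26, against -1.79 without knockout replicate 2) and, with the Sertoli identity median set equal, Aard (-0.051) and Tjp1 (-0.21); Cst3 also turned (-0.0052). That scaling moved the median of all genes by construction, to -0.15. Over 20 named genes and 12 alternatives, 183 values kept their direction and their side of the threshold, 38 lost a call, 13 gained one and 4 changed sign; Ocln and Jup gave no value at a mean of at least 2, being below it. The 2 genes called higher became 0 without a filter, with the identity median set equal and without trend and robust estimation, and 0 to 1 on leaving out a library; 0 to 1 were then called lower. Over all genes, higher calls were 97 without a filter, 37 with the identity median set equal and 0 to 494 on leaving out a library, and lower calls were 637 at a mean of at least 2, 1924 with the identity median set equal and 0 to 1308 on leaving out a library. In the junction list, higher calls were 0 without a filter and with the identity median set equal, 1 without trend and robust estimation and 0 to 2 on leaving out a library. Lower calls there were 0 at a mean of at least 2 and after quantile normalization, 4 with the identity median set equal and 0 to 2 on leaving out a library. In the secreted list, higher calls were 0 without a filter, with the identity median set equal and without trend and robust estimation, 2 at a mean of at least 2 and with all medians set equal, and 0 to 3 on leaving out a library, with 0 to 1 lower. The cause was not tested, beyond the fewer samples of the fits that leave out a library, where a lone library is taken to vary as the other group does.

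The labels give both groups replicate numbers 1 and 2 with no statement that a number marks a shared litter or day. The difference between replicates 1 and 2 correlated at r = 0.331 between the groups across genes, which are not independent replicates. With the replicate block, 1837 genes were called higher and 1477 lower, the junction list had 8 higher and 2 lower, the secreted list 9 higher, and Espn and Mro stayed called.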
